A study of Mus musculus with 2 samples.

Results

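The genes described here are the receptors for monoamines and acetylcholine, that is the adrenergic, dopamine, serotonin, histamine, muscarinic and nicotinic receptors, and the data are the places in the genome where Suz12 was found in differentiating mouse embryonic stem cells. The 51 member genes were given by name, among 21631 protein-coding genes in all, and a member counted as having a peak when a Suz12 peak overlapped its gene body or lay within 2.5 kb of it (gene bodies from RefSeq; all positions are on GRCm38). By this rule 29 of the 51 members had a peak and 22 had none. The ChIP-seq library came from wild-type E14 cells, a mouse embryonic stem cell line grown in serum, which had been differentiated for 72 h by adding 1 µM all-trans-retinoic acid (ATRA) and withdrawing LIF, a cytokine that maintains the undifferentiated state. The series also holds a Suz12 library of Suz12-KO cells (genotype Suz12-/-) at 0 h in serum, which was not analysed here. The libraries differ in genotype and time together and each group has 1 library, so there is no comparison between groups, no replicate error and no p-value, and the counts below describe this one library. Transcripts were not measured, so neither the expression of the receptors nor the cell types present after 72 h can be given.

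Suz12 belongs to the core of PRC2, the Polycomb complex that methylates histone H3 on lysine 27, a mark of silenced developmental genes, and in embryonic stem cells PRC2 sits mostly at CpG islands, stretches near gene starts that are rich in the dinucleotide CpG. Noradrenaline, adrenaline, dopamine, serotonin and histamine act mainly through receptors coupled to G proteins, and so do the muscarinic receptors for acetylcholine. The nicotinic receptors and the serotonin receptor built from Htr3a and Htr3b are instead ion channels made of several subunits. These receptors are best known from mature neurons, muscle, heart, gut and immune cells.

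To show what the sequence at a marked start looks like, the start windows of the member with the highest-scoring peak over its start are printed for each receptor family (for the adrenergic family, where Adra2a and Adrb1 share the highest score, that of Adra2a, whose peak is wider), followed by those of the members without a peak that had the lowest CpG content. Each window runs from 250 bases before to 50 bases after a gene start, is read 5′ to 3′ on the strand of the gene, and comes from RefSeq on GRCm38.p6. Capitals mark every CpG. The windows are Adra2a at chr19:54045009-54045308 (+ strand), Drd4 at chr7:141291768-141292067 (+), Htr6 at chr4:139075521-139075820 (− strand), Hrh1 at chr6:114397686-114397985 (+), Chrm3 at chr13:10360754-10361053 (−), Chrna3 at chr9:55026513-55026812 (−), Chrne at chr11:70619145-70619444 (−) and Chrna10 at chr7:102116664-102116963 (−). The adrenergic, serotonin and histamine examples hold 28 (Adra2a), 29 (Htr6) and 28 (Hrh1) CpG. The dopamine, muscarinic and nicotinic ones hold 15 (Drd4), 11 (Chrm3) and 18 (Chrna3). The unmarked nicotinic genes Chrne and Chrna10, chosen for their low CpG content, hold 1 each. Over the members with a start window, the median was 20.5 CpG with a peak and 6 without. Chrna7, also without a peak, held 35.
Adra2a: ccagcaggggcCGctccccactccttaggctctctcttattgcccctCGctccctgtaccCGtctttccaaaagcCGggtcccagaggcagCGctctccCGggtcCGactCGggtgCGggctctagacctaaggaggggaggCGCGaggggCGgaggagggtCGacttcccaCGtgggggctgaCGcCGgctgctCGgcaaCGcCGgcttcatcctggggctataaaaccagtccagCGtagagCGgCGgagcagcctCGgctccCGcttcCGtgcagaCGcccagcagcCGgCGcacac
Drd4: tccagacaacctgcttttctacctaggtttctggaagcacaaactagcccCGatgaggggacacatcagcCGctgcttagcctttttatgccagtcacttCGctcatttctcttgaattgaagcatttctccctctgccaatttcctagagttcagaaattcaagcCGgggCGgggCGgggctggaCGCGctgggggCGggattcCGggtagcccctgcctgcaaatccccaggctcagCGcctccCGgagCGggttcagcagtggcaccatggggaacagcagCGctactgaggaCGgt
Htr6: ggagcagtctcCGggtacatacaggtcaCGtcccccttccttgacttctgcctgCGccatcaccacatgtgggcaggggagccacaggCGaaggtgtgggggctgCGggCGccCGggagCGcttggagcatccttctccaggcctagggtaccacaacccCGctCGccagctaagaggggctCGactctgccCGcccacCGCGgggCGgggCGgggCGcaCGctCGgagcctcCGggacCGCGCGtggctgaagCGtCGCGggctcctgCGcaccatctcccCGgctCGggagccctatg
Hrh1: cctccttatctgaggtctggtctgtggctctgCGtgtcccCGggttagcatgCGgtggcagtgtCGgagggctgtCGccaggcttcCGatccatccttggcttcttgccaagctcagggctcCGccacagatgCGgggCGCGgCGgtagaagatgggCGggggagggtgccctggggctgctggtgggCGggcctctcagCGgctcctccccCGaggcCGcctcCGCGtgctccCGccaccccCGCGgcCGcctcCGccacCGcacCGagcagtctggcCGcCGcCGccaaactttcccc
Chrm3: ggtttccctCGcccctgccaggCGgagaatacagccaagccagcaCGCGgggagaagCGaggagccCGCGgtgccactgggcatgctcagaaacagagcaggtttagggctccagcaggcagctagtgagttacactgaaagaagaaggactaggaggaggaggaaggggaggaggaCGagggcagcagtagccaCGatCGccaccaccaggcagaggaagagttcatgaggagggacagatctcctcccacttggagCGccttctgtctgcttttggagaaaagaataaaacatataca
Chrna3: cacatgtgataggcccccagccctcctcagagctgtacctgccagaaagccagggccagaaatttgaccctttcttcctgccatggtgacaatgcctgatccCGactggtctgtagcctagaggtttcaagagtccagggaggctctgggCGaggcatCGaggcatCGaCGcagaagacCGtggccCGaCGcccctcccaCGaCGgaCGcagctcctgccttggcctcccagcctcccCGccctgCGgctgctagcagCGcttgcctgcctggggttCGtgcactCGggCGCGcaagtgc
Chrne: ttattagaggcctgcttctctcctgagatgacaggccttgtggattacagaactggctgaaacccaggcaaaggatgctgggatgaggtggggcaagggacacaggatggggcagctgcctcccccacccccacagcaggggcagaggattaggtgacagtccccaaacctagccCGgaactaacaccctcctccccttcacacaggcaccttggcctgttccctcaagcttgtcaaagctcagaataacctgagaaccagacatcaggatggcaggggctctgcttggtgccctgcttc
Chrna10: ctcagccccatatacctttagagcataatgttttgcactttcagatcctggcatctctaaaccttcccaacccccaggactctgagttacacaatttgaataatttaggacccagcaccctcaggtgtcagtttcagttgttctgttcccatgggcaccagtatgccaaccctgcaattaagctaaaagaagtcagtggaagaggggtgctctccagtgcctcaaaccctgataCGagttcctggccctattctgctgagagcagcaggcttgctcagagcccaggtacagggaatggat

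Suz12 peaks were found in all 6 receptor families. A peak was found at 8 of 8 adrenergic receptor genes (exact 95% interval 63.1 to 100%), 4 of 5 dopamine receptor genes (28.4 to 99.5%), 8 of 13 serotonin receptor genes (31.6 to 86.1%), 2 of 4 histamine receptor genes (6.76 to 93.2%), 3 of 5 muscarinic genes (14.7 to 94.7%) and 4 of 16 nicotinic genes (7.27 to 52.4%). Over the families together 56.9% of the members had a peak (42.2 to 70.7%), against 13.1% of all protein-coding genes, that is 2833 of 21631. Counting only peaks with a score at or above the median of the list, 17 of the 51 members had one, against 7.24% of all protein-coding genes. The intervals cover counting error only and treat genes as independent. They are wide for families of 4 or 5 genes, and the intervals of the histamine and nicotinic genes hold the value over all genes.

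Sorted by the kind of receptor, 25 of 33 genes for G protein-coupled receptors had a peak (75.8%, 57.7 to 88.9%). The count was 4 of 18 for genes of ion channel subunits (22.2%, 6.41 to 47.6%). Over all protein-coding genes 13.1% had a peak, a value that the interval of the channel genes holds. Among the G protein-coupled receptors, a peak lay at 7 of 8 genes whose receptors couple to Gs, which raises cyclic AMP, at 13 of 16 coupled to Gi, which lowers it, and at 5 of 9 coupled to Gq, which releases calcium through phospholipase C. When the peak had to reach the median score of the list, the counts were 17 of 33 receptor genes and 0 of 18 channel genes. Over all protein-coding genes 7.24% had such a peak. The difference between receptors and channels was not tested, since the genes are not replicates.

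**Figure D1:**
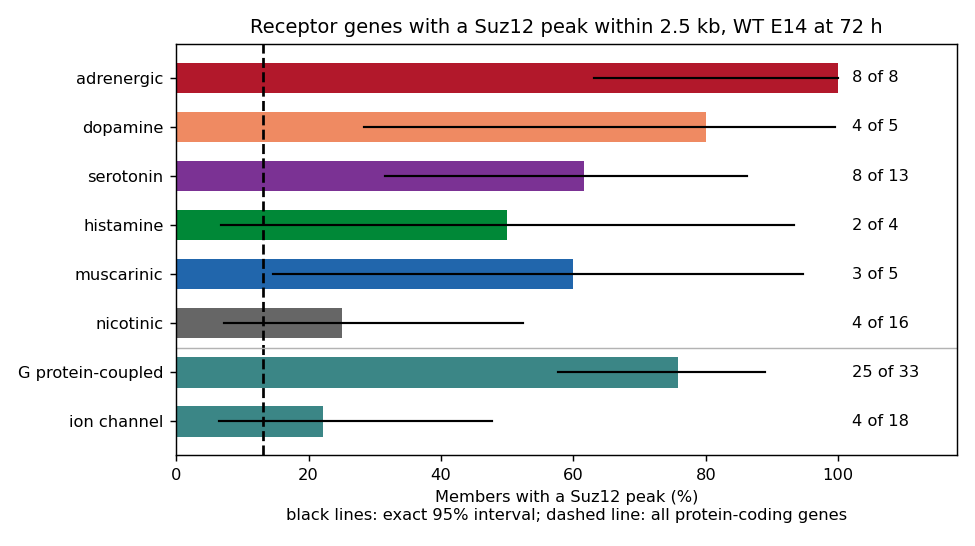
Bars give the percentage of member genes with a Suz12 peak within 2.5 kb of the gene, for the 6 receptor families and for the members sorted into G protein-coupled receptors and ion channel subunits; black lines are exact 95% intervals and the dashed line is the 13.1% of all protein-coding genes. Adrenergic genes stand at 8 of 8 and nicotinic genes at 4 of 16.

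The adrenergic receptors, which answer noradrenaline and adrenaline, held the highest-scoring peaks of the members. Adra2a, an inhibitory receptor on noradrenergic neurons and their targets, had a peak of 4147 bp with score 3100 at chr19:54044455-54048601, and Adrb1, the main beta receptor of heart muscle, had one of 4084 bp with score 3100 at chr19:56720774-56724857. Adra2c had a peak of 3363 bp with score 3035 at chr5:35278485-35281847, which covered the gene from end to end. The score is the authors' own value for each peak, on a scale that the file does not state. Scores pile up at 3100, a value that 325 of the 3373 peaks share, so members at 3100 cannot be ranked among themselves; another 30 peaks, none of them at a member, score above it.

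The other adrenergic genes had lower-scoring or more scattered peaks. Adra2b had a peak of 1936 bp (score 676) over its start, and Adrb3, the beta receptor of fat cells, had one of 1598 bp (380) inside the gene. Of the alpha1 receptors, which contract smooth muscle, Adra1a had a peak of 2045 bp (693) at one end of a gene of 135990 bp. Adra1b and Adra1d were the members with 2 peaks each. Adra1d had peaks at both ends, of 3241 bp (score 2610) and of 1972 bp (846). The higher-scoring peak of Adra1b (1191 bp, score 522) lay within the gene, 938 bp from the end farthest from its listed starts, and the other (1029 bp, score 158) covered an internal start.

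Of the dopamine receptors, Drd4 stood out with a peak of 3400 bp and score 1990.2 at chr7:141291740-141295139. This peak lay 2037 bp from the neighbouring gene Deaf1, the only other protein-coding gene within reach of it. The D1-like receptor genes Drd5 (1753 bp, score 690) and Drd1 (1353 bp, score 365), whose receptors raise cyclic AMP, each had a peak over the start. Drd2, the receptor on which antipsychotic drugs act, had the narrowest and lowest-scoring best peak of any member, of 821 bp with score 186, beginning 90 bp beyond its start. Drd3, a receptor of the limbic striatum, was without a peak, and the nearest one lay 152986 bp away.

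Serotonin receptor genes were also sorted by subgroup, but each subgroup holds only 2 to 4 genes. A peak was found at 4 of 4 Htr1 genes (exact interval 39.8 to 100%) and 3 of 3 of Htr4, Htr6 and Htr7 (29.2 to 100%). It was found at 0 of 2 Htr2 and 0 of 2 Htr3 genes (0 to 84.2% each) and 1 of 2 Htr5 genes (1.26 to 98.7%). These intervals overlap, and the differences between subgroups were not tested. The inhibitory Htr1 receptors had a peak at all 4 genes. Htr1a, which restrains the firing of serotonin neurons, had a peak of 2500 bp (score 1175) at chr13:105443330-105445829, and Htr1b, which acts at their terminals, had one of 2448 bp (819). Those of Htr1f (952 bp, score 355) and Htr1d (1507 bp, score 319) were narrower. The receptors that raise cyclic AMP, Htr6, Htr7 and Htr4, all had a peak as well. The one at Htr6 was the highest-scoring of the serotonin family (2849 bp, score 1218, chr4:139073564-139076412), with Htr7 (1737 bp, score 760) and Htr4 (1115 bp, score 412) below it.

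The other serotonin receptors were mostly free of peaks. Htr2a, the cortical receptor on which hallucinogens act, lay 2108011 bp from the nearest peak, the longest distance of any member, and Htr2b, known from heart valves and gut, lay 49754 bp away. The channel genes Htr3a and Htr3b, neighbours on chromosome 9, lay 62781 and 98576 bp from the nearest peak. Htr5b had a peak of 1758 bp (score 508) inside the gene, 629 bp from one end, while the nearest peak to its relative Htr5a lay 262688 bp away.

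Histamine receptors were split evenly. Hrh1, the receptor behind itch and wakefulness, had a peak of 2220 bp (score 1263) at chr6:114397028-114399247, and Hrh3, which restrains histamine release in the brain, had one of 3482 bp (1079). Hrh2, which drives gastric acid secretion, and Hrh4, a receptor of immune cells, had none, with the nearest peaks 135912 and 1166286 bp away.

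Muscarinic receptor genes with a peak were Chrm3 of glands and smooth muscle (2379 bp, score 1245), Chrm2 of the heart (2559 bp, score 912) and Chrm4 of the striatum (2790 bp, score 888). Their scores and widths lay close together, and each peak covered the gene start. Chrm1, the main muscarinic receptor of the cortex, and Chrm5, found on dopamine neurons, had none, with the nearest peaks 1050931 and 679569 bp away.

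Among the nicotinic subunits all peaks belonged to genes of the neuronal type, 4 of 9, and none to the 5 muscle subunits Chrna1, Chrnb1, Chrnd, Chrne and Chrng or to Chrna9 and Chrna10 of the hair cells of the ear. The distance to the nearest peak was 18446 bp for Chrng, 154545 bp for Chrne, 172921 bp for Chrna9, 281479 bp for Chrna1 and 289184 bp for Chrna10. With so few genes, 0 of 5 allows a share of up to 52.2% (exact 95% interval). For the 4 of 9 neuronal genes the interval was 13.7 to 78.8%. Over all protein-coding genes 13.1% had a peak, and the difference between the types of subunit was not tested. Chrna4, a subunit of the most common nicotinic receptor of the brain, had a peak of 1633 bp (score 464) over its start and away from both outer ends of the gene. The cluster of Chrna5, Chrna3 and Chrnb4 on chromosome 9 held the others. Chrna3, which with Chrnb4 forms the main receptor of autonomic ganglia, had a peak of 1519 bp (score 465) over its start at chr9:55025491-55027009. Chrna5, an accessory subunit, had one of 1043 bp (189) over its inner start. Chrnb4 counted only through the peak of Chrna3, which lay 1145 bp from it. With this shared peak and the 2 members that had 2 peaks each, the 29 members with a peak rested on 30 distinct peaks.

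The remaining neuronal subunit genes Chrna2, Chrna6, Chrna7, Chrnb2 and Chrnb3 had no peak. The neighbours Chrnb3 and Chrna6 on chromosome 8 lay 140093 and 174594 bp from the nearest peak and Chrna2 lay 482127 bp away. The nearest one to Chrnb2, the usual partner of Chrna4, was 65404 bp away, and that to Chrna7, which forms receptors by itself, 542062 bp. Just outside the 2.5 kb limit lay Chrnd, 3232 bp from a peak inside Prss56 (1167 bp, score 229), and Chrnb1, 4902 bp from a peak over Fgf11 and Tmem102 (4645 bp, score 2360.0). Just inside it lay Chrnb4 at 1145 bp. Every other member with a peak had one overlapping the gene itself.

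**Figure D2:**
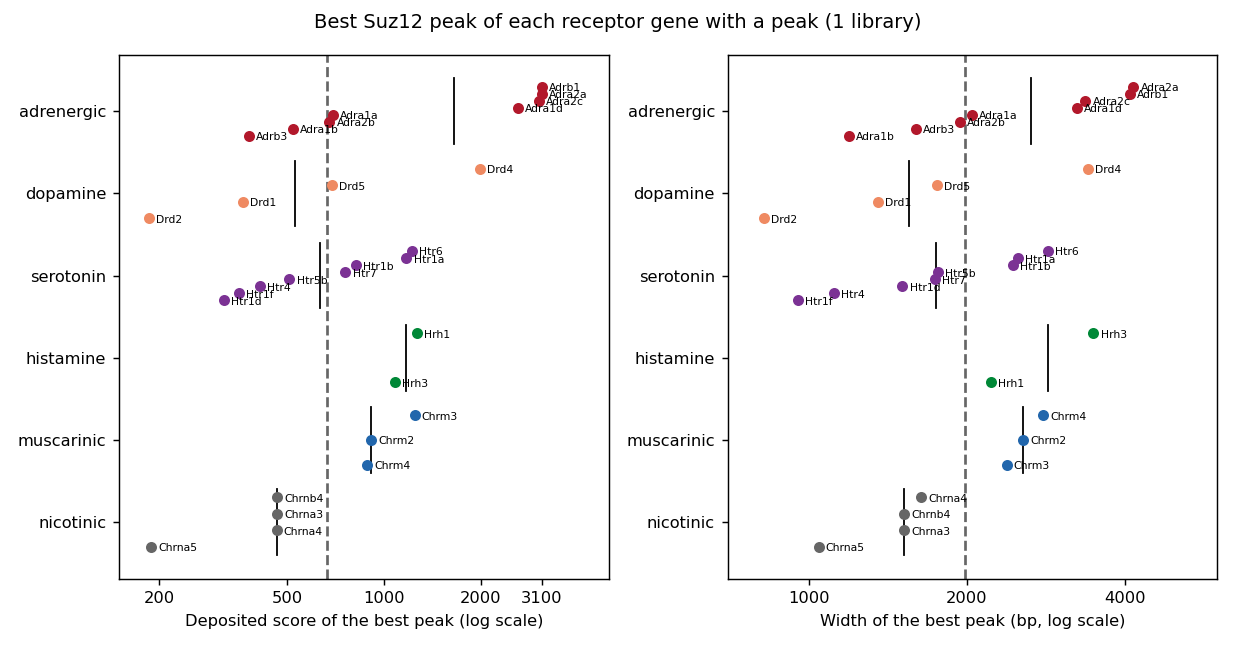
Each point is the best Suz12 peak of a member, by deposited score (left) and width in bp (right), both on log scales; short black lines are family medians and the dashed line is the median of all protein-coding genes with a peak. Adra2a, Adrb1 and Adra2c lie at the right end and the 4 nicotinic genes at or below a score of 465.

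Scores and widths of the marked receptor genes were set beside those of all marked genes. The median best score was 693 over the 29 members with a peak and 663 over all 2833 protein-coding genes with a peak, and the median width was 1936 bp and 1981 bp. Only Adra2a and Adrb1 reached a score of 3100, that is 2 of the 29 members with a peak, against 369 of the 2833 genes with one. Of all protein-coding genes 1.71% reached such a score. By family, the median best score was 1652 for adrenergic genes, 1171 for histamine, 912 for muscarinic, 634 for serotonin, 527 for dopamine and 464 for nicotinic genes. All 10 members with a score of 1000 or more encode G protein-coupled receptors, as do 25 of the 29 members with a peak. The share of all protein-coding genes at that score was not computed, and scores of receptors and channels were not tested against each other.

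The peaks sat at gene starts and reached into the genes. A start was listed for 39 members, and 22 of them had a peak over a start, against 8.57% of the 17274 protein-coding genes with a listed start. Within 2.5 kb of a start the count was 23 of 39, against 10.0%. Drd2 accounts for the difference. Chrnb4 was the one member with a peak and a listed start but no peak within 2.5 kb of a start. Adra1b counted only through its lower-scoring peak, of score 158. No start was listed for Adra1a, Adra1d, Adrb3, Htr3a, Htr4, Htr5b, Hrh4, Chrm1, Chrnd, Chrna2, Chrna6 and Chrnb3.

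At all 22 members the covering peak ran further downstream of the start than upstream, as it did at 84.1% of the 1481 protein-coding genes with a covered start. The median reach was 1494 bp downstream and 637 bp upstream at the members, against 1328 and 596 bp over all genes. By the ratio of these lengths the most lopsided was Adra2c, with 3281 bp downstream and 81 bp upstream, followed by Htr1b with 2281 and 166 bp and Drd4 with 3121 and 278 bp. At Adra2a the peak ran 3342 bp into the gene and 804 bp before it. The most even was that of Adra1b, with 538 bp downstream and 490 bp upstream.

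**Figure D3:**
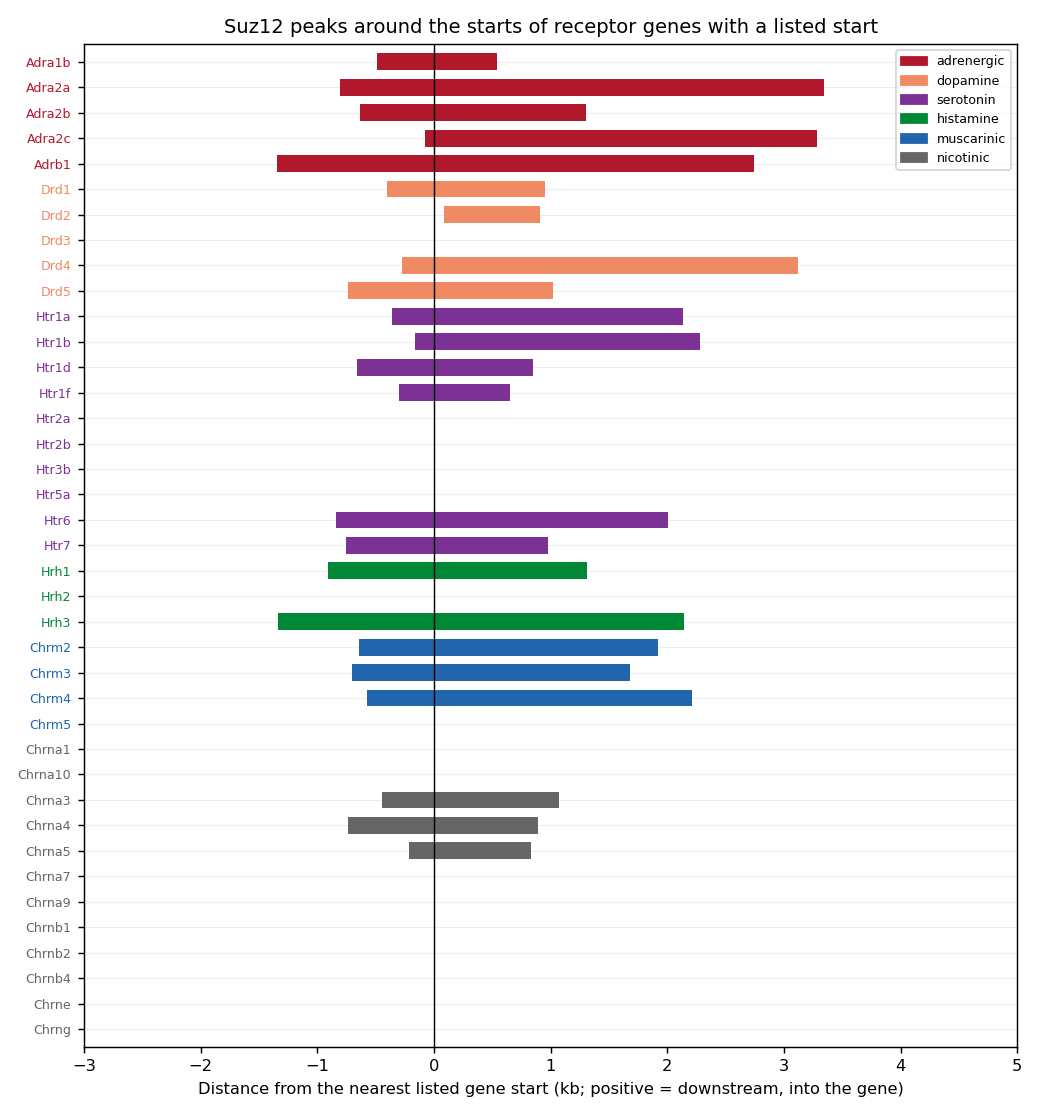
Horizontal bars are Suz12 peaks placed by their distance in kb from the nearest listed gene start (0, vertical line; positive values run into the gene), for the 39 members with a listed start. Peaks of Adra1b near its far end and of Chrnb4 lie outside the range drawn; the bars of 22 members cross the start and each reaches further to the right than to the left.

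Peaks filled much of several short receptor genes. Peaks covered 100% of Adra2c (3198 bp), 90.3% of Adrb1 (3034 bp), 89.8% of Adra2a (3724 bp) and 70.5% of Drd4 (4491 bp). Htr1a was covered to 48.1%, Hrh3 to 44.3% and Htr1b to 41.2%. At the other extreme Chrm3, of 485577 bp, was covered to 0.399% and Htr1f, of 181056 bp, to 0.358%, with the peak at the start alone. The median gene length was 17141 bp for members with a peak and 17872 bp for those without, and the short nicotinic genes Chrne (4331 bp) and Chrna10 (5712 bp) had no peak.

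**Figure D4:**
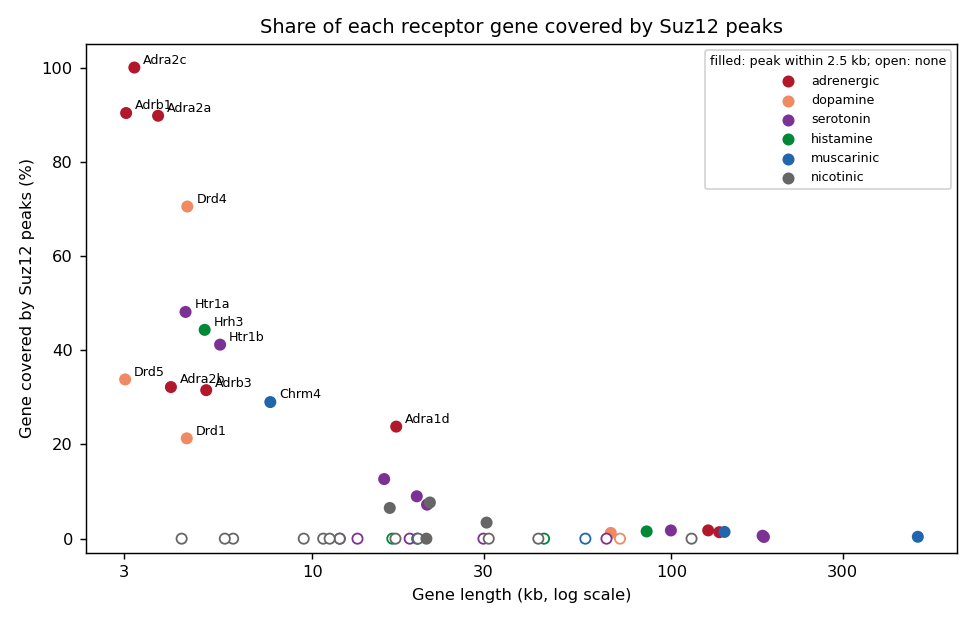
Each point is a member gene, by its length in kb (log scale) and the percentage of it that Suz12 peaks covered; filled points have a peak within 2.5 kb and open points have none. Adra2c, Adrb1, Adra2a and Drd4, all short, are covered by 70.5% or more, and genes over 100 kb by less than 2%.

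The CpG content of the start was compared because PRC2 is known from CpG islands. It was measured in the window of 300 bases at the outermost listed start as the number of CpG seen over the number that the C and G content would give, and a window counted as CpG-rich at a ratio of at least 0.6 with at least 50% G+C. The median ratio was 0.68 at the 24 members with a peak and a listed start and 0.30 at the 15 without a peak. In 81.4% of all pairs of a member with and a member without a peak, the one with a peak had the higher ratio. Over all protein-coding genes the medians were 0.69 with a peak and 0.56 without.

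CpG-rich starts belonged to 17 of the 39 members, and 14 of the 17 had a peak, against 15.8% of all protein-coding genes with such a start. The highest ratios among the 14 with a peak were those of Drd5 (1.02), Hrh3 (1.02) and Htr7 (0.94). The 3 exceptions were Chrna7 (ratio 1.01, 70.0% G+C), Hrh2 (0.74) and Chrnb1 (0.63). Sorted by kind, a peak lay at 13 of 14 G protein-coupled receptor genes with a CpG-rich start and at 1 of 3 channel genes with one, namely Chrna4 (0.81).

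Starts that were not CpG-rich belonged to 22 members, of which 10 had a peak, against 9.03% of all protein-coding genes of that kind. Drd4 and Chrna3, both printed above, missed the limit narrowly with a ratio of 0.59 each. At Adra1b, Htr1d and Chrna5 the outermost window had ratios of 0.23, 0.36 and 0.40, but another listed start was CpG-rich and the peak covered that one. Adra2c (0.36), Chrm3 (0.46), Htr1a (0.48) and Htr1b (0.52) had a peak over a single start with a window below the limit. Chrnb4 (0.48) completes this group. When any listed start could supply the CpG-rich window, 17 of 20 members with one had a peak, against 16.3% of all such genes, and 7 of 19 members without one, against 8.23%. The windows show only the sequence nearest the start, while these peaks ran 1677 bp (Chrm3) to 3281 bp (Adra2c) into the gene, and the sequence there was not used here. The lowest ratios of all, 0.04 at Chrne, 0.06 at Chrna10 and 0.08 at Chrng, belonged to nicotinic genes without a peak, and the printed windows of Chrne and Chrna10 show a single CpG each.

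**Figure D5:**
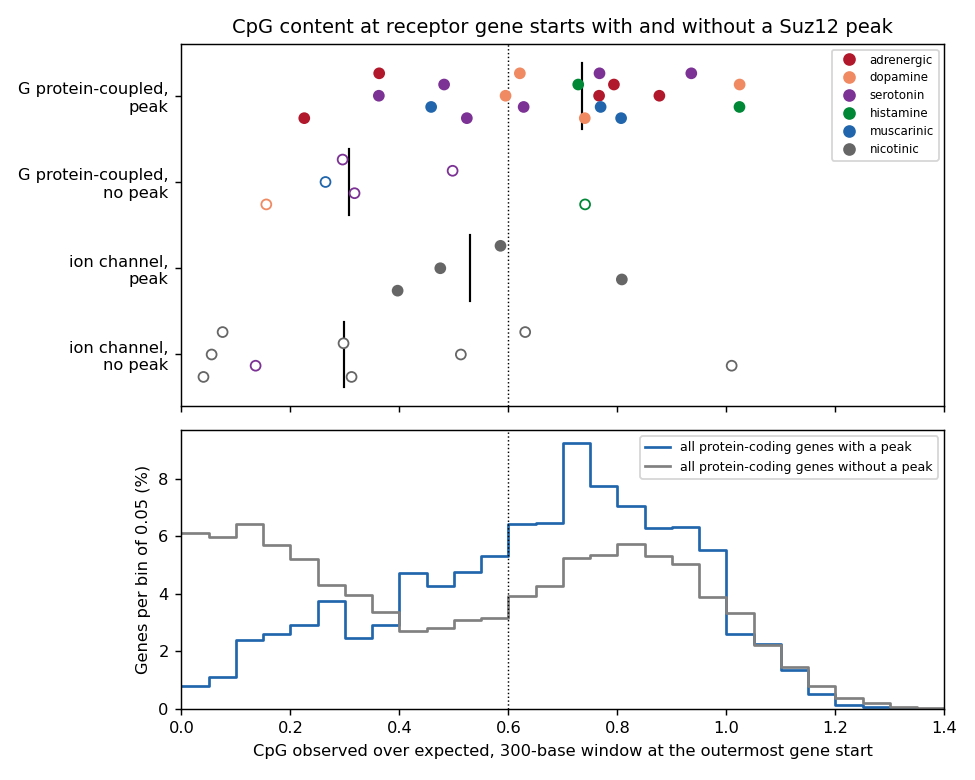
Top, CpG observed over expected in the 300-base window at the outermost start of each of the 39 members with a listed start, by kind of receptor and presence of a peak (filled, peak; open, none; black lines, medians; dotted line, 0.6). Bottom, the same measure over all protein-coding genes with a listed start; members with a peak have a median of 0.68 and members without one of 0.30.

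Peaks were also counted at genes that make, move and break down these transmitters and at genes that relay the receptors' signals. Of 24 genes of transmitter synthesis, transport and breakdown 7 had a peak (29.2%, 12.6 to 51.1%). Chat, which makes acetylcholine, and Slc18a3, which loads it into vesicles and lies within the bounds of Chat, shared a best peak of 4440 bp with score 3100, and Ache, which breaks acetylcholine down, had one of 3013 bp (score 1729). The transporters that clear noradrenaline (Slc6a2, score 893), serotonin (Slc6a4, 353) and dopamine (Slc6a3, 280) from the synapse also had a peak. Of 30 genes for G proteins, arrestins, receptor kinases and regulators of G protein signalling 8 had a peak (26.7%, 12.3 to 45.9%), led by Gnal (2885) and Gnas (2667), which both encode stimulatory alpha subunits. Of 11 genes for nicotinic receptor assembly and the endplate 3 had a peak (27.3%, 6.02 to 61.0%), led by Ly6h (1525) and Lypd1 (1476), whose proteins bind nicotinic receptors. The intervals of all 3 lists hold the 13.1% of all protein-coding genes, and their differences from the receptors were not tested.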

How the data were processed

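Per the labels, Suz12 was immunoprecipitated from formaldehyde-fixed cells, and the submitters' processing notes name the tools Bowtie and MACS and the build GRCm38 (mm10). Their versions and settings, the control and any pooling were not given in the sources used here. Each line of the authors' deposited file lists a peak's start and end in base pairs and a score whose scale the file does not state; the authors' scores, from 150.3 to 3233, served only to describe and filter peaks. No reads are listed, so depth is unknown, and a missing peak shows only that none was called.

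Gene bodies, gene starts with strand and start windows came from RefSeq tables of GRCm38.p6. Peaks were converted to positions counted from 1 and joined to genes in Python 3.11.15 with pandas 2.3.3, NumPy 2.4.6 and SciPy 1.17.1 (exact Clopper-Pearson intervals). The overlap code was tested on simulated data. No p-values were computed. All members are accounted for; sequences were chosen per family by highest score over the start, plus the lowest CpG ratios without a peak. The members and lists were chosen with earlier results of these data known. Alternatives changed the distance, the score limit, the part of the gene counted and the CpG measure.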

Additional observations from a re-analysis of the deposited data

How the results depend on the processing

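Of 80 alternative values for counts and medians, 73 stayed within 1.5 times the main count (or, for the CpG comparison, within 10 percentage points), 7 moved and 0 reversed. Counts and medians have no direction, so only the CpG comparison could have reversed. The settings share peaks and genes and are not independent checks. All 7 values that moved arose with peaks limited to a score at or above the median of 572, which keeps fewer peaks by construction. The members with a peak were then 17, against 7.24% of all protein-coding genes. Of the members 15 had such a peak at a listed start, for which no share over all genes is given. By family, 2 dopamine, 4 serotonin and 0 nicotinic genes were left, and the channel genes came to 0. Of 357 calls of single members 338 held and 19 moved. Chrnb4 was lost when the peak had to overlap the gene or lie within 1 kb, Chrna4 when only gene ends counted, and Drd2 and Chrna5 when scores had to reach 300.6, double the lowest; Chrnd and Chrnb1 were gained within 5 kb. Among pairs of members with and without a peak, the one with a peak had the higher value (ties split evenly) in 81.4% by number of CpG, 74.0% by G+C percent, 80.5% when the peak had to cover the start and 85.8% with the start of highest CpG ratio, the last chosen after seeing the data. Joining peaks within 3 kb left the median width at 1936 bp. No paired analysis was possible because each group has 1 library, of which only the wild-type one was used. The unknown depth limits what a missing peak can say.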

Other observations

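Among receptors for other fast and slow transmitters, 30 of 50 genes for glutamate, GABA and glycine receptors had a Suz12 peak within 2.5 kb (60.0%, exact 95% interval 45.2 to 73.6%). Of these, 9 of 10 genes for G protein-coupled glutamate and GABA receptors had one (55.5 to 99.7%), led by Grm4 (score 3100) and Gabbr2 (2385), and 21 of 40 genes for channel subunits (36.1 to 68.5%), led by Grid1 (3200), with Grik3, Grin1 and Grin2d sharing a score of 3100. Of 40 neuropeptide receptor genes, all for G protein-coupled receptors, 21 had a peak (52.5%, 36.1 to 68.5%). Over all protein-coding genes the share was 13.1%. The median best score was 746 for the glutamate, GABA and glycine receptor genes and 699 for the neuropeptide receptor genes, against 693 for the monoamine and acetylcholine receptor genes. The lists were not tested against each other.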
